A study of Homo sapiens with 4 samples.

Results

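The 5 genes examined here, GATA2, GATA3, GATA4, GATA5 and GATA6, encode zinc-finger transcription factors of the GATA family, and the data are the EZH2 peaks that lay near their starts in HEK293 cells. Peaks were taken from both deposited lists when any of their bases fell within 20 kb of a gene start, with the starts set in hg19 to the nearest kilobase. This gave 11 peaks of 66093 in all, of which 3 of 35016 came from cells with an induced H3.1-K27M histone and 8 of 31077 from cells with an induced H3.1-WT histone.

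HEK293 is an established human embryonic kidney line. Both groups of cells had received the histone by lentivirus, had been selected with G418 and had been induced with 1 µg/ml doxycycline, and they kept their own histone genes beside it. In H3.1-K27M the lysine at position 27 of histone H3.1 is replaced by methionine, and H3.1-WT is the same histone without the change. Each genotype had 1 EZH2 library and 1 library made with the anti-rabbit HRP secondary antibody alone, which served as background, from 200000 cells a reaction. CUT&RUN was used, in which a nuclease tethered by an antibody cuts out the DNA around the bound protein. With 1 library per group there is no replicate check, and no test between the genotypes was made. The lists give no read numbers, so the depth of the libraries is unknown. The sample titles of the H3.1-K27M libraries do not name the mutation, which was taken from the genotype label.

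EZH2 is the enzyme of Polycomb repressive complex 2, which methylates lysine 27 of histone H3 and keeps the genes of other lineages silent. GATA proteins bind the DNA motif that gives them their name and set cell identity in several lineages. GATA2 and GATA3 are known for their work in blood cells, and GATA4, GATA5 and GATA6 for heart and endoderm. GATA3 also acts in the duct from which the kidney's collecting system forms. Genes of this kind, with CpG-rich starts, are well known as Polycomb targets in cells that do not use them.

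EZH2 peaks were present at 3 of 5 GATA genes in the H3.1-K27M list, GATA3, GATA5 and GATA6, and at all 5 in the H3.1-WT list. GATA2 and GATA4 had a peak in H3.1-WT alone, the GATA2 one being lost at a −log10 q minimum of 2 or with equal list lengths, and none of the 5 had one in H3.1-K27M alone. Among all 40 kb windows of chromosomes 1 to 22 and X, 25.2% held a peak of the H3.1-K27M list and 29.2% one of the H3.1-WT list, so both counts of genes lay above the level of the lists. On chromosomes 1 to 22, where all 5 genes lie, the shares were 23.0% and 29.0%. The windows include assembly gaps, where no peak can be called. They are not windows at gene starts, so an excess particular to GATA genes cannot be read from them. At a −log10 q minimum of 2 the counts fell to 1 of 5 genes in H3.1-K27M, GATA3, and 4 of 5 in H3.1-WT. Window shares at that minimum were not taken. The comparison asks where EZH2 was called when the mutant or the normal histone was induced.

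**Figure D1:**
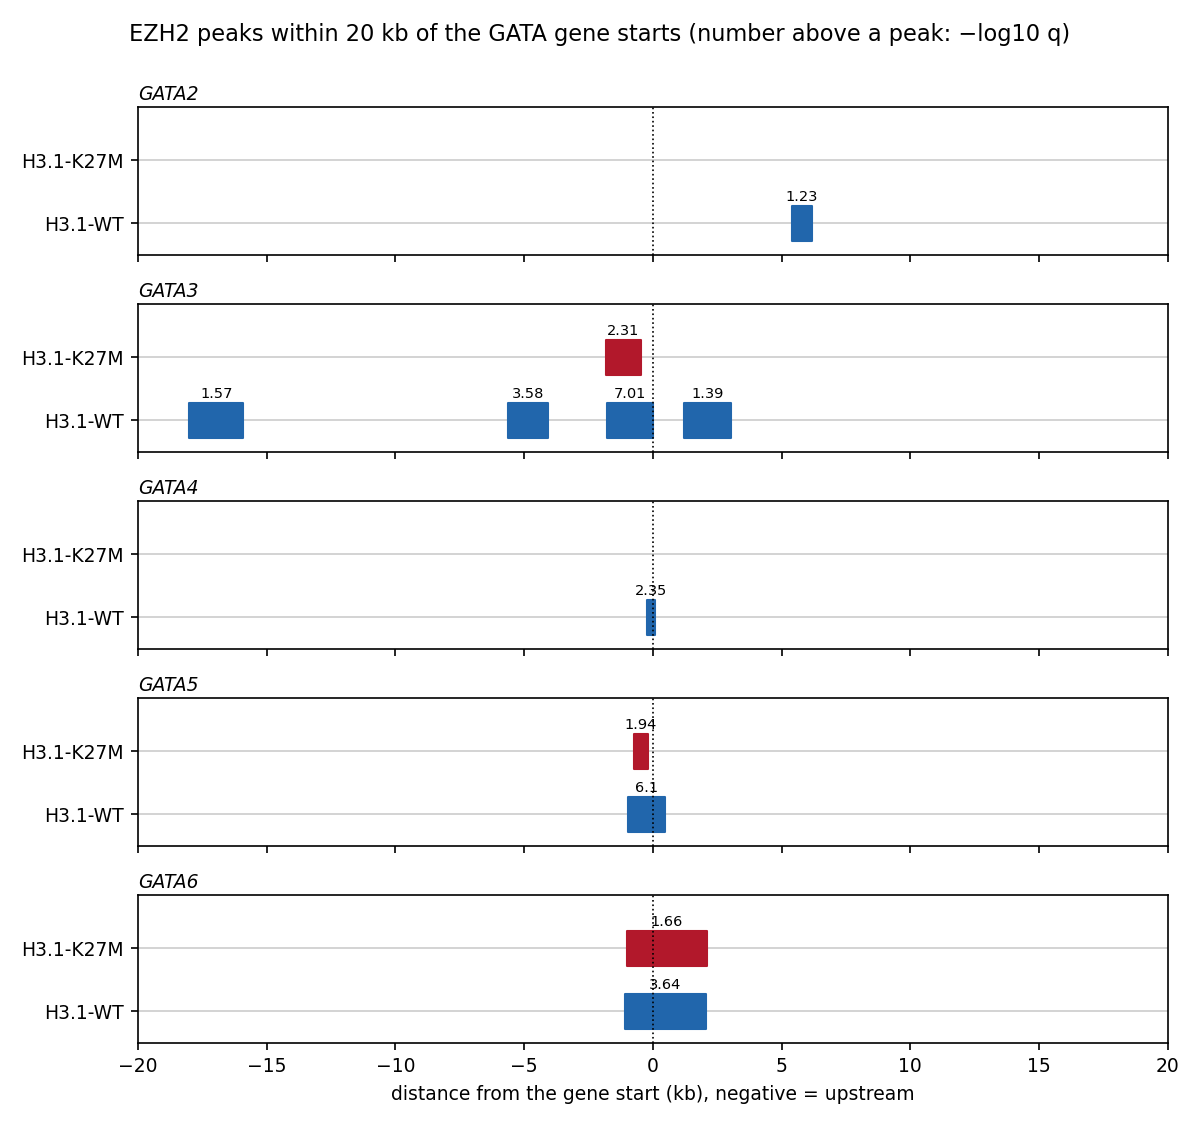
Positions of the EZH2 peaks at the 5 GATA genes, with the distance from the gene start in kb on the horizontal axis (negative is upstream in the direction of transcription) and 1 line per list, H3.1-K27M above H3.1-WT. Boxes are peaks to scale, and the number above each is its −log10 q; GATA3 has 1 H3.1-K27M peak and 4 H3.1-WT peaks.

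At most of the genes a peak lay close to the start in each list. A peak came within 1 kb of the start at 3 of 5 genes in the H3.1-K27M list and at 4 of 5 in the H3.1-WT list, where 3.63% and 3.16% of all 2 kb windows held a peak. GATA2 had none in either list at the start used here, and GATA4 had one in the H3.1-WT list alone. Because the starts are rounded to the nearest kilobase, positions relative to them can be off by up to 500 bases. A peak that reached across the start by more than this on both sides was found at 1 gene in each list, GATA6 in both.

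GATA6, which directs early endoderm and heart development, carried the peak whose position differed least between the lists. In H3.1-K27M it ran over hg19 chr18:19747991-19751112, in band 18q11.2, a width of 3122 bases. In H3.1-WT it ran over chr18:19747908-19751060, a width of 3153 bases. The upstream edges were 83 bases apart and the downstream edges 52 bases apart. Of the H3.1-K27M peak 98.3% lay inside the H3.1-WT peak, and of the H3.1-WT peak 97.4% lay inside the H3.1-K27M peak. From the rounded start, the peak reached 2112 bases downstream in the H3.1-K27M list and 2060 bases in the H3.1-WT list. Upstream it reached 1009 and 1092 bases. The rounding of the start could remove most of the difference between the sides in H3.1-K27M and reverse it in H3.1-WT. Whether the H3.1-WT peak reached further into the gene than away from it thus cannot be told.

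The fold enrichment of a peak is a linear ratio of EZH2 signal over background, and its −log10 q expresses how firmly it was called; both are the authors' own values. They depend on depth and scaling, so they describe a peak within its list, and no change is read from them between the lists. The GATA6 peak had a fold enrichment of 3.49 and a −log10 q of 1.66 in H3.1-K27M, where 42.6% of peaks were at least as firmly called. In H3.1-WT it had a fold enrichment of 4.36 and a −log10 q of 3.64, reached by 12.8% of peaks. It was among the wide peaks of either list, with 6.44% of H3.1-K27M peaks and 5.23% of H3.1-WT peaks at least as wide.

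The sequence just before a start is shown for GATA6 and GATA2. The hg19 start used here was spanned in both lists at GATA6, and had no peak within 1 kb in either at GATA2. Both are the 250 bases before the most upstream start in RefSeq's GRCh38.p14 table, matched by symbol, and their positions are in that build and not comparable with the hg19 positions of the peaks. GATA6 is read from the plus strand of GRCh38.p14 chr18:22169339-22169588 and GATA2 from the minus strand of chr3:128493202-128493451. Capitals mark CG dinucleotides, the CpG sites.
GATA6: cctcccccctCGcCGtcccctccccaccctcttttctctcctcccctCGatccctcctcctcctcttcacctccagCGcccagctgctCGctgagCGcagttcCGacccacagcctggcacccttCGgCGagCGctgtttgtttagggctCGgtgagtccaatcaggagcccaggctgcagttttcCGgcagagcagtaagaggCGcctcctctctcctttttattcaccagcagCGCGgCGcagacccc
GATA2: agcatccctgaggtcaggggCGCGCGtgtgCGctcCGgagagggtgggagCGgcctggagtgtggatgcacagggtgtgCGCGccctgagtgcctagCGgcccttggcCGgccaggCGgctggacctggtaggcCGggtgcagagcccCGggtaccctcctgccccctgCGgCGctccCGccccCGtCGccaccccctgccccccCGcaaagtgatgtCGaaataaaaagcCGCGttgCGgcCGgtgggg
The stretch before GATA6 holds 16 CpG sites and the one before the most upstream GATA2 start holds 24. The GATA2 and GATA6 starts of the table were not matched to the hg19 starts. A link between CpG sites and peaks was not tested. Over the table's windows of 300 bases, which take in 50 bases after the start, GATA6 had 25 CpG sites and 66.7% G and C. The most upstream GATA2 start had 29 and 72.3%. The other GATA2 start had 22 and 71.3%, so fewer CpG sites than GATA6. Over all 35116 windows the medians were 14 CpG sites and 58.7% G and C. At least as many CpG sites stood in 32.0% of windows for GATA6, and in 24.2% and 37.7% for the GATA2 starts. For GATA3 the table lists 6 starts with 5 to 36 CpG sites, and none was matched to the hg19 start. The letters GATAA, or TTATC on the other strand, stood in 1 of the 6 GATA3 windows and in none of the GATA2 and GATA6 windows, against 22.7% of all windows. GATA4 and GATA5 were not analysed here in this respect.

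GATA3, which acts in T helper cells and in the nephric duct, was the most densely covered of the genes in H3.1-WT. Its window held 1 H3.1-K27M peak with 1373 covered bases, against 4 H3.1-WT peaks with 7235. Of all 40 kb windows, 11.1% were covered over at least as many bases in H3.1-K27M. In H3.1-WT only 0.533% of windows were covered as far as GATA3, and 0.960% held 4 peaks or more. Part of the H3.1-WT coverage rested on weak calls: at a −log10 q minimum of 2, or with equal list lengths, GATA3 had 1373 covered bases in the H3.1-K27M list and 3328 bases in the H3.1-WT list.

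The single H3.1-K27M peak at GATA3 lay at chr10:8095170-8096542, in band 10p14, from 1830 to 458 bases before the start. Its fold enrichment was 3.90 and its −log10 q 2.31, with 15.4% of the list at least as firmly called. It sat on the strongest of the H3.1-WT peaks there, chr10:8095209-8097009, which ran from 1791 bases before the start to 9 bases after it. That peak had a fold enrichment of 5.91 and a −log10 q of 7.01, reached by 3.85% of H3.1-WT peaks. The upstream edges of the pair were 39 bases apart, and the H3.1-K27M peak ended 467 bases short of the other on the side of the gene. Whether it reached the true start cannot be told at the rounding of the start.

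The other H3.1-WT peaks at GATA3 had no H3.1-K27M counterpart. A peak of 1527 bases, 5611 to 4085 bases before the start, had a fold enrichment of 4.47 and a −log10 q of 3.58. The nearest H3.1-K27M peak was 2254 bases away. On the gene side, a peak of 1822 bases began 1205 bases after the start and had a −log10 q of 1.39, with 1662 bases between it and the nearest H3.1-K27M peak. The fourth, of 2085 bases, lay 18003 to 15919 bases before the start with a −log10 q of 1.57. These last 2 were weak calls, since 77.4% and 64.3% of the H3.1-WT list were at least as firmly called. RefSeq places an antisense RNA gene, GATA3-AS1, beside GATA3, so peaks before the start need not belong to GATA3 alone.

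GATA5, a factor of the endocardium and gut, had 1 peak in each list, the H3.1-K27M one lying wholly inside the other. It covered chr20:61051192-61051748 in H3.1-K27M, 557 bases from 748 to 192 bases before the start, with a fold enrichment of 3.52 and a −log10 q of 1.94. In H3.1-WT it covered chr20:61050514-61051967, 1454 bases from 967 bases before the start to 486 bases after it, with a fold enrichment of 5.69 and a −log10 q of 6.10. The H3.1-K27M call thus left out 219 bases at the upstream end and 678 at the downstream end. The H3.1-K27M peak was reached in −log10 q by 27% of its list and the H3.1-WT peak by 4.84% of its own. Both lie in band 20q13.33.

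GATA4, a factor of heart and gonad development, had no peak in H3.1-K27M and 1 short peak in H3.1-WT. This list placed it at chr8:11561780-11562075, in band 8p23.1, from 220 bases before the start to 75 bases after it. At 296 bases it was a narrow call for a list whose minimum width was 261 bases, and 92.8% of the list was at least as wide. Its fold enrichment was 3.87 and its −log10 q 2.35, with 30.7% of the list at least as firmly called. The nearest H3.1-K27M peak was 97.6 kb away.

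GATA2, needed in blood stem cells, had no peak in H3.1-K27M and 1 weak peak in H3.1-WT. That peak, chr3:128205805-128206605 in band 3q21.3, lay 5395 to 6195 bases after the start and was 801 bases wide. It had a fold enrichment of 3.05 and a −log10 q of 1.23, and 91.7% of the H3.1-WT list was at least as firmly called. No H3.1-K27M peak came closer to it than 512 kb. RefSeq lists GATA2 starts 4671 bases apart in GRCh38.p14, and an antisense RNA gene, GATA2-AS1, overlaps GATA2 there. The H3.1-WT peak was therefore not assigned to one GATA2 start or to the antisense gene.

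**Figure D2:**
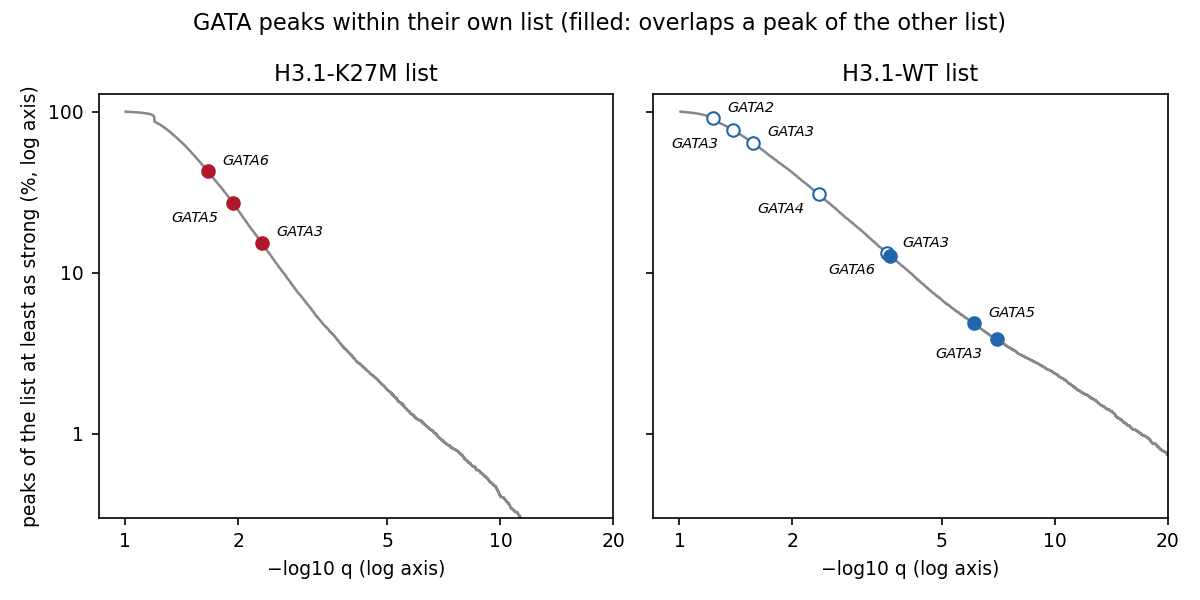
Rank of each GATA peak within its own list, H3.1-K27M on the left and H3.1-WT on the right, with −log10 q on the horizontal axis and the percentage of the list at least as strong on the vertical axis, both on log scales. The line is the whole list, points are GATA peaks, and filled points overlap a peak of the other list: all 3 on the left, and 3 of 8 on the right.

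The same 3 pairs of overlapping peaks are set here against 3 and 8 peaks, so the difference between the lists restates their peak numbers. Each of the 3 H3.1-K27M peaks met an H3.1-WT peak, as did 31.6% of the H3.1-K27M list. Of the 8 H3.1-WT peaks, 3 met an H3.1-K27M peak, as did 36.0% of the H3.1-WT list, so the H3.1-WT share was near its background. With a reciprocal overlap of at least 50%, 2 of the 3 H3.1-K27M peaks and 2 of the 8 H3.1-WT peaks were shared, those of GATA3 and GATA6, against 12.9% and 14.5% of the lists.

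Stronger H3.1-WT peaks had a counterpart more often over the whole list, and the few GATA peaks can only be set beside those levels. Of the 4 H3.1-WT peaks at GATA genes that reached a −log10 q of 3, 3 were overlapped, against 63.6% of such peaks over the list. The exception was the GATA3 peak that began 5611 bases before the start. Of the 4 weaker GATA peaks 0 were overlapped, against 29.5% over the list. GATA peaks that reached a −log10 q of 5 numbered 0 of 3 in the H3.1-K27M list and 2 of 8 in the H3.1-WT list, at GATA3 and GATA5, where the whole lists had 1.87% and 6.78%. Of all 40 kb windows 0.922% held such a peak of the H3.1-K27M list and 2.86% one of the H3.1-WT list.

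By length, the GATA windows had 5052 bases under H3.1-K27M peaks and 12939 under H3.1-WT peaks, a ratio of 0.390. The peak numbers, 3 and 8, gave a ratio of 0.375, and 4 of the 8 H3.1-WT peaks lay at GATA3. The lists shared 4961 bases, which were 98.2% of the H3.1-K27M bases and 38.3% of the H3.1-WT bases. Per gene, the ratio of covered length was 0.990 at GATA6, 0.383 at GATA5 and 0.190 at GATA3, and GATA2 and GATA4 had no covered bases in H3.1-K27M. GATA3 alone held 5901 of the 7978 bases covered in H3.1-WT alone, so the pooled ratio rests largely on that gene.

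**Figure D3:**
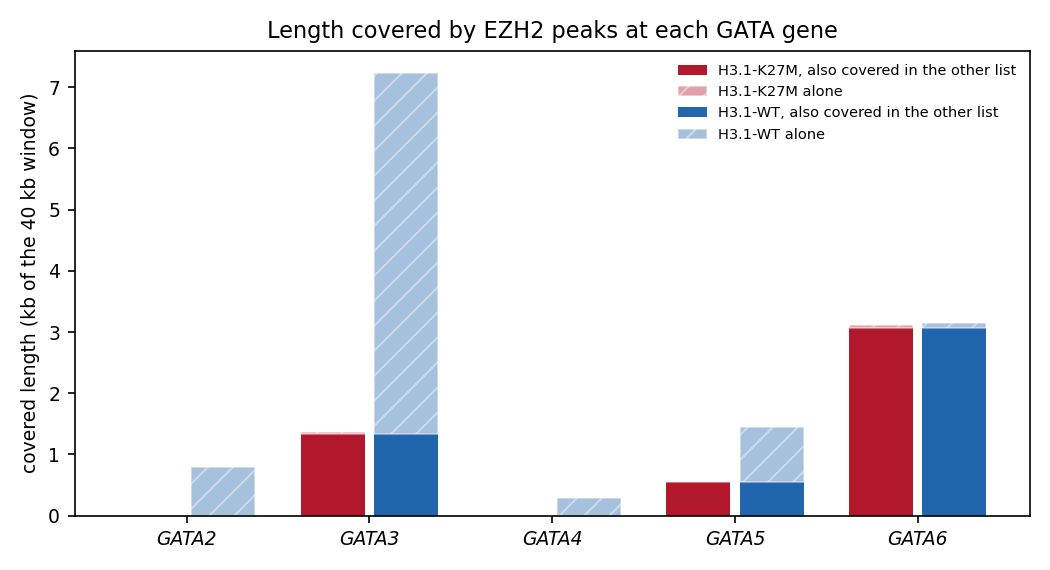
Bases covered by EZH2 peaks within 20 kb of each gene start, in kb, with the H3.1-K27M bar left of the H3.1-WT bar. Solid parts are covered in both lists and hatched parts in 1 list alone: the bars are nearly equal at GATA6, 3122 and 3153 bases, and furthest apart at GATA3, 1373 and 7235 bases.

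Covered length was smaller in H3.1-K27M at 5 of 5 genes, at GATA6 by a small margin, 3122 against 3153 bases. At a −log10 q minimum of 2, or with equal list lengths, GATA2 had 0 covered bases in both lists, which leaves 4 genes. The minimum of 2 also took out the H3.1-K27M peaks at GATA5 and GATA6. GATA6 then had 0 covered bases in H3.1-K27M against 3153 in H3.1-WT, so its near equality holds only without that minimum. A smaller covered length in H3.1-K27M was the commoner direction in the lists as well. Of autosomal 40 kb windows with a peak in either list, 59.8% had fewer covered bases in H3.1-K27M. Peak numbers in the wider surroundings ran the same way. Within 1 Mb on either side of the starts and leaving out the peaks within 20 kb, GATA2 had 2 H3.1-K27M peaks and 5 H3.1-WT peaks, GATA3 had 4 and 12, and GATA6 had 6 and 23. For GATA4 the numbers were 12 and 18, and for GATA5 they were 28 and 36. Of autosomal 2 Mb windows with a peak, 66.9% had fewer peaks in H3.1-K27M.

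Across the rounded starts, the 3 H3.1-K27M peaks together covered 2939 bases upstream and 2113 bases downstream, the downstream part all at GATA6. In H3.1-WT the 8 peaks covered 7682 bases upstream and 5257 downstream.

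Between 20 kb and 50 kb from the starts neither list held a peak at any of the 5 genes. The nearest peaks outside the limit in H3.1-K27M lay 96.9 kb from GATA5, 97.7 kb from GATA4, 114 kb from GATA6, 335 kb from GATA3 and 506 kb from GATA2. In H3.1-WT they lay 54.4 kb from GATA6, 64.9 kb from GATA4, 68.2 kb from GATA5, 267 kb from GATA3 and 369 kb from GATA2. Just inside the limit lay the weak GATA3 peak of H3.1-WT that ended 15919 bases before the start. Beyond the 20 kb limit, no peak of either list thus came nearer than 267 kb to GATA3 or 369 kb to GATA2. Some peaks beyond the limit were, within each list, more firmly called than any GATA peak of that list. One lay 96.9 kb upstream of GATA5 in H3.1-K27M, with a −log10 q of 3.19, and 96.6 kb upstream in H3.1-WT, with a −log10 q of 12.2. Another lay 508 kb upstream of GATA2 in H3.1-K27M, with a −log10 q of 7.06, and 506 kb upstream in H3.1-WT, with a −log10 q of 12.8.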

How the data were processed

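EZH2 CUT&RUN peaks of HEK293 cells with an induced H3.1-K27M or H3.1-WT histone were used, from 1 EZH2 and 1 HRP library per genotype. Per the submitters' processing notes, the build was hg19 and the tools were MACS2, deepTools, Picard, Bowtie2 2.3.5.1 and cutadapt; roles and parameters are not given in the sources used here. The authors deposited a broad-peak list for each genotype, called per sample with the HRP library as control by the peak names. Per peak, the deposited lists give a fold enrichment, a linear ratio over background, and −log10 p and −log10 q values. Read depth is not in the lists, and these values depend on it.

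Gene starts were the rule's hg19 positions, rounded to 1 kb, and strands are general knowledge. Positions are 1-based. Peaks were members when any base lay within 20 kb; covered length is counted inside the window. Overlap means at least 1 shared base. Background shares come from adjoining windows of 40 kb, 2 kb and 2 Mb, with chromosome lengths from the hg19 band table of circlize 0.4.16. The 40 kb and 2 kb shares take in chromosome X unless given for autosomes. In the lists, 0 peaks ended past a chromosome end. No hg19 annotation was used here, so exons and introns are not given. Promoters came from RefSeq's GRCh38.p14 table by symbol, with 3 of 5 genes matched. All 5 genes and every peak near them are named. The members and lists were chosen with earlier results of these data known. No test between genotypes was made. Overlap and window code was tested on simulated peaks against bedtools 2.31.1. The software was R 4.3.3, matplotlib 3.10.9, scipy 1.17.1, pandas 2.3.3, numpy 2.4.6 and Python 3.11.15. Alternatives were other −log10 q minimums, distances, midpoints, joined peaks, equal list lengths and a reciprocal overlap.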

Additional observations from a re-analysis of the deposited data

How the results depend on the processing

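The ratios of peak number and covered length, 0.375 and 0.390, rest on 3 and 8 peaks and stayed below 1 under all 7 alternatives run. These rework the same 2 lists, so they are no separate check of the direction. A high −log10 q minimum also takes out more of the H3.1-K27M list, where 1.87% of peaks reach 5, against 6.78% in H3.1-WT. A −log10 q of at least 2 left 1 H3.1-K27M gene with a peak, GATA3, since the peaks at GATA5 and GATA6 dropped out. The length ratio was then 0.167, and 97.2% of H3.1-K27M and 16.2% of H3.1-WT bases were shared. A minimum of 5 left 0 genes with an H3.1-K27M peak and 2 with an H3.1-WT peak, with ratios of peak number and length of 0 and 0% of H3.1-WT bases shared. With 15538 peaks in each list the length ratio was 0.614 and 60.3% of H3.1-WT bases were shared, since the weak H3.1-WT calls then drop out. Under both settings, the minimum of 2 and the equal lengths, GATA2 lost its H3.1-WT peak, which leaves 4 H3.1-WT genes. A distance of 10 kb gave 45.7%, since it leaves out the far GATA3 peak. Joined peaks gave 99.0% of H3.1-K27M and 30.4% of H3.1-WT bases shared. H3.1-K27M peaks with a reciprocal overlap of 50% held 89.0% of that list's GATA bases, counted over their full width and not as shared bases. Using 50 kb or midpoints changed none of these values. Of 140 values for single genes, 27 moved by more than 1.5 times and 113 did not. The 113 include the H3.1-K27M values at GATA2 and GATA4, which were 0 throughout and which stricter settings could not raise. No paired analysis was possible because there is only 1 library in a group. Every count and length is limited by the unknown depth, and starts rounded to 1 kb limit every statement on whether a peak reaches a start.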
